A study of Mus musculus with 6 samples.

Results

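Sterol and fatty acid synthesis genes were examined in mouse bone marrow on Affymetrix oligonucleotide arrays, 3 from mice transplanted with ASXL1-MT cells and 3 from mock-transplanted mice. The gene set was defined by pathway and held 39 genes: enzymes that build cholesterol, enzymes that build fatty acids, regulators of both, and genes that export, store or move cholesterol. Probe sets were counted as theirs when the platform annotation gave exactly 1 gene symbol and that symbol was on the list. This gave 82 probe sets of the 45037 in the table, and 36 genes of the 18193 measured. Acat2, Nr1h2 and Soat1 had no such probe set and were not analysed here. Of the 36 genes, 11 rested on 1 probe set and the others on 2 to 6.

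The ASXL1-MT mice, called ASXL1Mt below as in the sample titles, had a disease resembling myelodysplastic syndrome per the labels, and the mock mice were the normal controls. Cells carrying CD3e, B220 or TER-119, which mark T cells, B cells and red cell precursors, were removed with magnetic beads per the series text, and the labels call the remainder myeloid marrow cells. All titles carry the same transplant prefix. Strain, age, time after transplant, the vector and what the mock cells received are not given in the sources used here, nor is it stated whether each array had its own mouse or a pool. The p-values therefore cover the spread among these arrays alone, and that spread may be technical.

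Cells make cholesterol from acetyl-CoA through mevalonate, farnesyl diphosphate, squalene and lanosterol, and they make fatty acids from the same acetyl-CoA through malonyl-CoA. The genes of both routes are switched on by the SREBP transcription factors, which the escort protein SCAP carries out of the endoplasmic reticulum when sterols are low and which INSIG proteins hold back when sterols are plentiful. When sterols accumulate, the liver X receptors (LXR) raise cholesterol exporters and the ubiquitin ligase encoded by Mylip, which removes the receptor for low density lipoprotein. In marrow, dividing precursors build membrane from these lipids, and macrophages are known for strong LXR activity.

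In ASXL1Mt marrow 12 of the 36 genes rose and 0 fell in limma's test with Benjamini-Hochberg adjustment over all genes at a threshold of 0.05. Among all 18193 genes 11.4% were called, 6.63% as higher and 4.75% as lower. At an unadjusted p under 0.05 the set had 17 higher and 2 lower, where 18.1% of all genes were higher and 10.9% lower, and the unadjusted counts below are to be read against these shares. The 12 genes were Mvd, Sqle, Lss, Cyp51, Tm7sf2 and Dhcr7 of cholesterol synthesis, Fasn, Elovl6, Fads1 and Fads2 of fatty acid synthesis, and the regulators Srebf1 and Insig2. Their differences ran from 1.49-fold for Insig2 to 3.59-fold for Cyp51, whose log2 change of 1.85 was 0.95 on bright probe sets alone and 1.17 as the median of its probe sets, both below Sqle at 1.58 and Fads2 at 1.56. Over the 36 genes the median log2 change, which is the ASXL1Mt mean minus the mock mean, was 0.47, and it was 0.11 over all genes, a difference of 0.36. In 18 of the 36 genes every ASXL1Mt array lay above every mock array and in 2 every one lay below, where 23.5% and 14.4% of all genes did so.

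**Figure D1:**
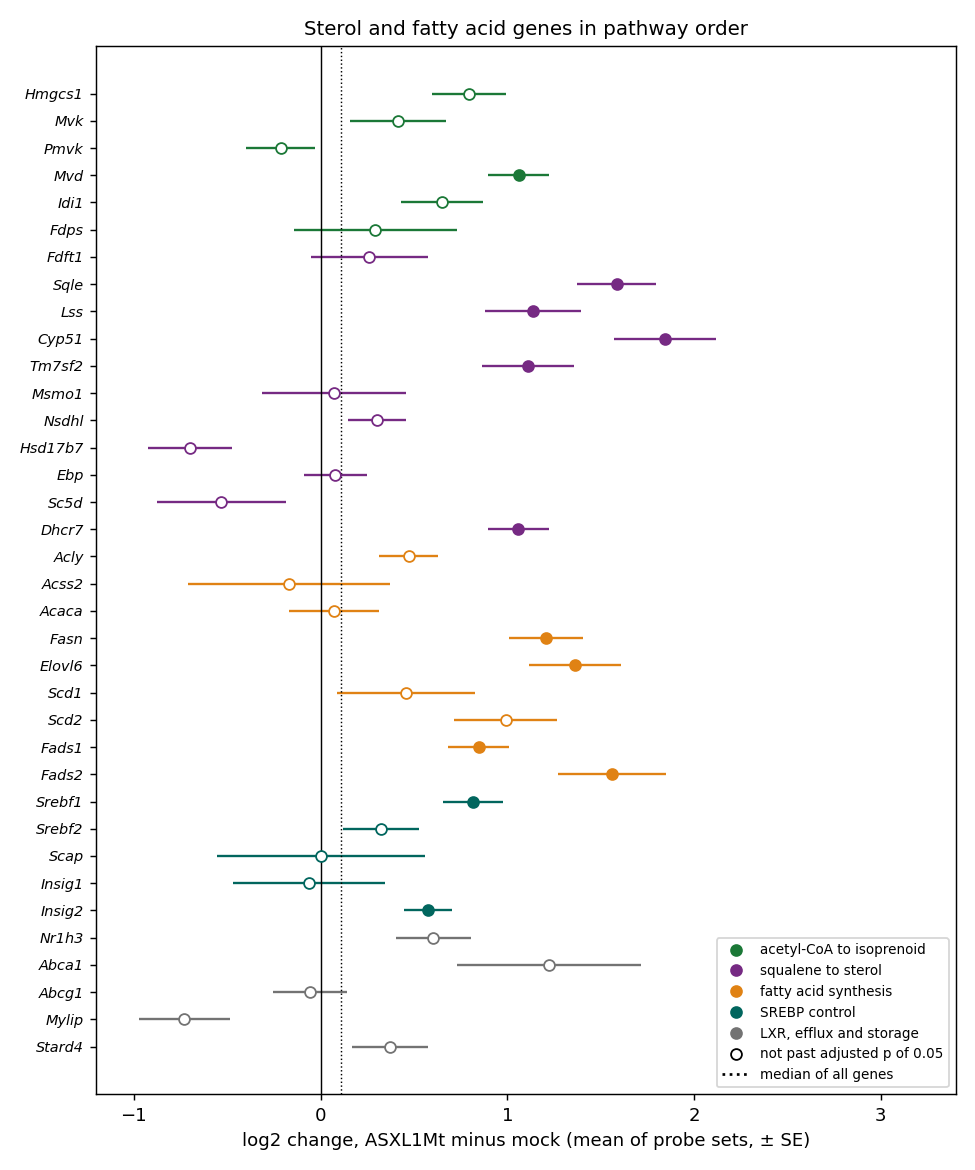
Log2 change of the 36 measured genes (horizontal axis, ASXL1Mt minus mock, mean of a gene's probe sets with its standard error), in pathway order from the top and coloured by role; filled points passed the adjusted p of 0.05 and the dotted line is the median of all genes at 0.11. The 12 filled points all lie to the right of 0, with Cyp51 at 1.85, Sqle at 1.58 and Fads2 at 1.56 farthest out, while Mylip at -0.73 and Hsd17b7 at -0.70 lie farthest to the left.

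The deposited values are log values, taken as log2, from which the median of the 6 arrays had been removed for every probe set, so they show differences between arrays and no expression level. Because of this centring, a gene read by 1 probe set whose groups do not overlap has the nearest values of the groups at equal distances from 0 (the lowest ASXL1Mt and the highest mock value where ASXL1Mt is above, the highest ASXL1Mt and the lowest mock value where it is below). Brightness was recovered in part from the rounding of the stored values, and 17205 probe sets (38.2%) were read as having 3 arrays at a signal of 256 or more. These are called bright. The others are called dim below, although failing this reading does not by itself show a low signal. Of the 82 probe sets studied here 52 were bright, in 33 of the 36 genes. Their median SD within groups was 0.22, against 0.67 for the other 30. Cells are measured in bulk, so fewer cells of a type and less RNA per cell cannot be told apart. The count of 12 called genes was 1, 0 and 0 without ASXL1Mt replicates 1, 2 and 3, and 3, 2 and 0 without mock replicates 1, 2 and 3, while calls over all genes, 2072 with every array, numbered 1033, 422 and 192 and 876, 586 and 574. Of all calls 58.2% were higher, and this share was 47.6% after quantile normalization, 46.6% after cyclic loess and 49.3% with array medians set equal. Under these scalings 8, 8 and 9 genes of the set were called, each of them higher.

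SREBP proteins bind short promoter words that usually stand beside a CCAAT box, the site of the factor NF-Y. RefSeq promoter windows of build GRCm38.p6, from 250 bases before to 50 after each start, were matched for 28 of the 36 genes. The letters CCAAT were found on either strand in windows of 22 of these 28 genes, 8 of the 10 matched genes that rose and 14 of the 18 others, against 41.1% of all 27025 genes in the table. The SREBP word TCACNCCAC, searched on both strands, was found in 1 of the 28, Hmgcs1, against 1.44% of all genes, and the E-box CACGTG in 6, against 8.09%. The share of called genes with CCAAT thus stood beside a like share among the others. The 150 bases before the start are shown for the 7 called genes with a single window, to show where the CCAAT letters sit. They are shown also for Hmgcs1, which held the SREBP word but did not pass the threshold. A link between these letters and the changes was not tested. Capitals mark TCACNCCAC, which TCACCCCAC in Hmgcs1 matches, and CCAAT, which reads ATTGG when it is on the opposite strand.
Mvd, chr8:122443423-122443572, minus strand: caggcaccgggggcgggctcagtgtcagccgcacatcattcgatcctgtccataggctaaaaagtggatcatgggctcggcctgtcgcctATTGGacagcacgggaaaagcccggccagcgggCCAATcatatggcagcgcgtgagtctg
Lss, chr10:76531455-76531604, plus strand: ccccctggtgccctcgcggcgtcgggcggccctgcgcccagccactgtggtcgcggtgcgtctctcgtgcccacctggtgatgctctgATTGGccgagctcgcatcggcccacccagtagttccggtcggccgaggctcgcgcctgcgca
Cyp51, chr5:4104698-4104847, minus strand: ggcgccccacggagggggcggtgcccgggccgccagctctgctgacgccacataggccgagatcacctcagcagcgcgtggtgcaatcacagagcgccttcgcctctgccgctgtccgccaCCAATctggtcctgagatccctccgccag
Tm7sf2, chr19:6067851-6068000, minus strand: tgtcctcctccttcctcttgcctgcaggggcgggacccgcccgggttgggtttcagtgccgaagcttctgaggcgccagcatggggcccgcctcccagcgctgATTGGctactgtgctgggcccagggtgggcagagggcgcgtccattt
Fasn, chr11:120824548-120824697, minus strand: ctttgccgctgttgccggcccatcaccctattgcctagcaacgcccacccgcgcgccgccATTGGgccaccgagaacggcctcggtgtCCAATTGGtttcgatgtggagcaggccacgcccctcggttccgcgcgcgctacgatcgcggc
Elovl6, chr3:129532236-129532385, plus strand: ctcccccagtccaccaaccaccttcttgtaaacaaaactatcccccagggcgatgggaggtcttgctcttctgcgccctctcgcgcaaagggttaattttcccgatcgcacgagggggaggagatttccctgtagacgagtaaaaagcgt
Fads2, chr19:10101504-10101653, minus strand: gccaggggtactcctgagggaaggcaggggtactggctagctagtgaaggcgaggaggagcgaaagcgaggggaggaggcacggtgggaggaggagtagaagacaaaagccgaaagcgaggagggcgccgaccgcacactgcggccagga
Hmgcs1, chr13:119690201-119690350, plus strand: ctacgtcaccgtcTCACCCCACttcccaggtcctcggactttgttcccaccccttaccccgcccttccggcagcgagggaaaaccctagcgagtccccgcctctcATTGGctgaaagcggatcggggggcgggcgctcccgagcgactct

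The windows of Elovl6 and Fads2 hold none of the marked letters in these stretches, and both genes were among those that rose. In Fasn, CCAAT and ATTGG overlap in one run of letters and were counted on both strands.

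The first steps lead from acetyl-CoA to farnesyl diphosphate, the branch point to sterols and to the lipid anchors of proteins. Of 6 measured genes 1 rose, Mvd, and 0 fell, with 3 higher and 0 lower at an unadjusted p under 0.05. The median log2 change was 0.53. Mvd encodes the decarboxylase that turns mevalonate diphosphate into isopentenyl diphosphate. Its values were 0.37, 0.56 and 0.50 in ASXL1Mt marrow, against -0.44, -0.50 and -0.82 in mock marrow. The groups were well apart, with a 2.09-fold difference (log2 change 1.06 ± 0.16 SE, limma adjusted p = 0.0213), and its 2 probe sets gave changes of 1.07 and 1.05. Hmgcs1, which joins acetoacetyl-CoA and acetyl-CoA to HMG-CoA, had 0.74, 0.36 and 0.28 in ASXL1Mt, against -0.27, -0.19 and -0.55 in mock. The groups did not overlap and all 5 of its probe sets had a change above 0, from 0.39 to 1.34, but the gene did not pass (log2 change 0.80 ± 0.20 SE, limma adjusted p = 0.0607). Idi1, which isomerises isopentenyl diphosphate, had no overlap between groups and did not pass (log2 change 0.65, adjusted p = 0.122). Fdps, which makes farnesyl diphosphate, had probe sets that disagreed: the bright one had 0.95 with an adjusted p = 0.053, and the dim one had -0.37 with an SE of 0.89. The kinases Mvk and Pmvk, which phosphorylate mevalonate in sequence, had log2 changes of 0.42 and -0.21 and overlapping groups.

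Squalene synthesis, cyclisation and the trimming of lanosterol to cholesterol are the committed part of the route. Of 11 genes 5 rose and 0 fell, and 5 were higher and 1 lower at an unadjusted p under 0.05. Sqle encodes squalene epoxidase, an oxygen-requiring and rate-limiting step. Its values were 0.86, 0.70 and 0.53 in ASXL1Mt, against -1.08, -0.53 and -1.06 in mock. This was a 3.0-fold difference (log2 change 1.58 ± 0.21 SE, limma adjusted p = 0.0167), and 2 of the 6 fits that omitted an array still called it, with changes from 1.49 to 1.77. Lss folds the epoxide into lanosterol. It had 0.22, 0.36 and 0.39 in ASXL1Mt, against -0.40, -1.29 and -0.76 in mock. The 2.20-fold difference (adjusted p = 0.0495) was close to the threshold and lost its call after quantile normalization (adjusted p = 0.0666), cyclic loess (adjusted p = 0.0668), equal medians (adjusted p = 0.0621) and with trend and robust settings (adjusted p = 0.116).

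Cyp51, which removes a methyl group from lanosterol, had the largest gene value of the set among those called, at 1.05, 0.84 and 0.47 in ASXL1Mt, against -0.75, -0.92 and -1.51 in mock (log2 change 1.85 ± 0.27 SE, limma adjusted p = 0.0201). Its 3 probe sets differed in size: the dim one changed by 3.63 and passed, while the bright ones had 1.07 and 0.83 and did not. With the median of its probe sets Cyp51 had a change of 1.17 and lost the call (adjusted p = 0.0518), as it did with the probe set of least spread (1.07, adjusted p = 0.0527), and its bright probe sets alone gave 0.95. Tm7sf2, a sterol reductase that acts on the product of CYP51, had 0.55, 0.31 and 0.64 in ASXL1Mt, against -1.07, -0.31 and -0.46 in mock, a 2.16-fold difference (adjusted p = 0.048). Mock replicate 1 was the lowest array. The call was lost after quantile normalization (adjusted p = 0.0548), cyclic loess (adjusted p = 0.0649) and equal medians (adjusted p = 0.058). Dhcr7, the reductase that finishes the molecule, had 0.73, 0.35 and 0.64 in ASXL1Mt, against -0.51, -0.35 and -0.59 in mock. This was a 2.08-fold difference (adjusted p = 0.0219), with an SD of 0.20 in ASXL1Mt and 0.12 in mock. Of the 6 fits that omitted an array, 0 called it.

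The other 6 genes between squalene and cholesterol did not pass, and they did not share a direction. Fdft1, squalene synthase, had a log2 change of 0.26, with 0.36 in each of its bright probe sets, and Nsdhl, a decarboxylating dehydrogenase, had 0.30 with groups that did not overlap. Msmo1, a methyl oxidase of the same stretch, had 0.07, and the isomerase gene Ebp had 0.08. Hsd17b7, a ketosteroid reductase of the same demethylation complex, had the opposite sign, with -0.10, -0.52 and -0.57 in ASXL1Mt, against 0.36, 0.56 and -0.01 in mock. Every ASXL1Mt array was below every mock array and all 4 of its probe sets had a change below 0, from -0.95 to -0.27, but the gene did not pass (log2 change -0.70, adjusted p = 0.112). Sc5d, a desaturase near the end of the route, had a log2 change of -0.53, and its probe sets ran from -1.24 to 0.34.

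Fatty acid synthesis had the highest median of the groups, a log2 change of 0.85, with 4 of 9 genes higher and 0 lower, and with 6 higher and 0 lower at an unadjusted p under 0.05. Fasn encodes fatty acid synthase, which builds palmitate from malonyl-CoA. It had 0.45, 0.52 and 0.63 in ASXL1Mt, against -1.03, -0.55 and -0.45 in mock. The difference was 2.31-fold (log2 change 1.21 ± 0.20 SE, limma adjusted p = 0.0243). Elovl6 lengthens palmitate to stearate. Its values were 0.85, 0.59 and 0.47 in ASXL1Mt, against -1.18, -0.45 and -0.55 in mock, a 2.57-fold difference (adjusted p = 0.0299). All 3 of its probe sets had a change above 0 and 2 of them passed alone.

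Fads1 and Fads2 encode the desaturases that turn dietary linoleic and linolenic acid into arachidonic acid and its relatives, and in the RefSeq table they are direct neighbours on chromosome 19. Fads2 had 0.84, 0.44 and 0.81 in ASXL1Mt, against -0.58, -0.60 and -1.42 in mock, a 2.95-fold difference (log2 change 1.56 ± 0.29 SE, limma adjusted p = 0.0315). Its bright probe set changed by 2.12 (SE 0.19, adjusted p = 0.0135 among probe sets), the largest change of any bright probe set in this gene set. Fads1 had 0.44, 0.31 and 0.37 in ASXL1Mt, against -0.43, -0.28 and -0.71 in mock, a 1.80-fold difference (adjusted p = 0.0337). The stearoyl-CoA desaturases Scd1 and Scd2, which make oleate, lie on the same chromosome with 1 coding gene between them. Scd2 had 0.24, 0.39 and 0.27 in ASXL1Mt, against -1.11, -0.15 and -0.83 in mock. It did not pass as a gene (log2 change 0.99, adjusted p = 0.0792), but 1 of its 3 bright probe sets did (1.27, adjusted p = 0.0355). The others had 1.29 (adjusted p = 0.0593) and 0.42 (adjusted p = 0.67). Of the 6 fits that omitted an array 1 called the gene, the fit without mock replicate 2 (1.26, adjusted p = 0.0484). Scd1 had no bright probe set and a log2 change of 0.46, with ASXL1Mt replicate 1 at 1.03 and the other ASXL1Mt arrays at -0.34 and 0.21.

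The enzymes that supply acetyl-CoA and malonyl-CoA did not pass as genes. Acly, which splits citrate to cytosolic acetyl-CoA, had a log2 change of 0.47 (adjusted p = 0.119), but its 3 bright probe sets changed by -0.02, 0.18 and 0.24. Acaca, which makes malonyl-CoA, had a gene change of 0.07 from probe sets of opposite sign. Its bright one passed alone, with 0.31, 0.46 and 0.39 in ASXL1Mt against -0.35, -0.31 and -0.48 in mock (log2 change 0.77, SE 0.14, adjusted p = 0.0388), and its dim one had -0.63 with an SE of 0.45. Acss2, which makes acetyl-CoA from acetate, also had disagreeing probe sets. 1 of its 2 bright probe sets was lower in every ASXL1Mt array, with -0.27, -0.61 and -0.58 against 0.71, 0.34 and 0.27 in mock, and just missed the threshold (log2 change -0.93, adjusted p = 0.0546).

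**Figure D2:**
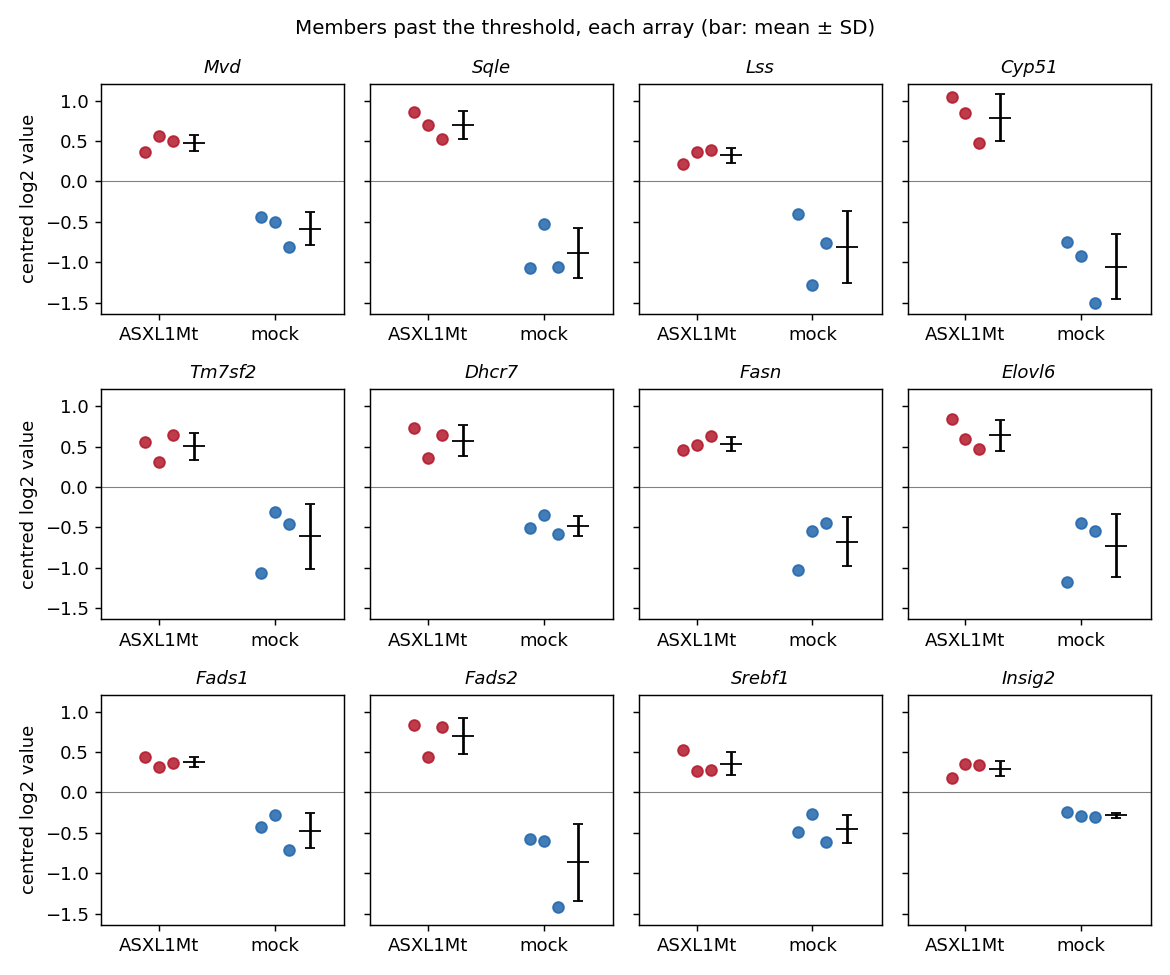
Centred log2 value (vertical axis) in each ASXL1Mt array (red, left) and each mock array (blue, right) for the 12 genes past the threshold, with the mean ± SD of the 3 arrays as a bar beside the points. In each of the 12 panels the 3 ASXL1Mt points lie above 0 and the 3 mock points below it, with the closest approach in Insig2, whose ASXL1Mt values start at 0.18 and whose mock values end at -0.25.

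Among the 5 genes that control SREBP, 2 rose and 0 fell, and the counts at an unadjusted p under 0.05 were the same. Srebf1 encodes the SREBP forms that favour fatty acid genes. It had 0.52, 0.27 and 0.28 in ASXL1Mt, against -0.49, -0.27 and -0.61 in mock, a 1.76-fold difference (log2 change 0.82 ± 0.16 SE, limma adjusted p = 0.0366), and it lost its call after quantile normalization (adjusted p = 0.0548) and cyclic loess (adjusted p = 0.0567). Insig2, a retention protein of the endoplasmic reticulum, had 0.18, 0.36 and 0.34 in ASXL1Mt, against -0.25, -0.29 and -0.31 in mock. The difference of 1.49-fold was small and tight (adjusted p = 0.0484), and it lost its call after quantile normalization (adjusted p = 0.0691), cyclic loess (adjusted p = 0.0728) and equal medians (adjusted p = 0.0671). Of its 3 bright probe sets, 2 changed by 0.88 and 0.73 and passed, and the other had 0.11.

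The other 3 regulators had overlapping groups. Srebf2, whose product favours cholesterol genes, had 0.34, 0.17 and -0.09 in ASXL1Mt, against -0.02, -0.06 and -0.48 in mock, a log2 change of 0.32 with an adjusted p = 0.357. Insig1, itself a sensitive SREBP target, had 0.80, -0.31 and -0.39 in ASXL1Mt, against 0.31, 0.38 and -0.40 in mock. Its change was -0.06 with an SE of 0.41, and ASXL1Mt replicate 1 stood far above the other ASXL1Mt arrays. Scap, the escort protein gene, had a log2 change of 0.00 as a gene and 0.18 in its bright probe set.

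In the group of LXR, export and sterol transfer genes 0 of 5 passed in limma's test, with 1 higher and 1 lower at an unadjusted p under 0.05. Abca1, the transporter that loads cholesterol onto apolipoprotein A-I, had 1.15, 0.16 and 0.35 in ASXL1Mt, against -0.95, -1.30 and 0.24 in mock, and its gene value did not pass (log2 change 1.22, SE 0.49, adjusted p = 0.176). Its only bright probe set did pass, with 0.96, 0.55 and 0.89 in ASXL1Mt against -0.78, -0.55 and -0.66 in mock (log2 change 1.47, SE 0.18, adjusted p = 0.0201). Abcg1, the exporter to high density lipoprotein, had a change of -0.06 and overlapping groups. Nr1h3, which encodes LXR alpha, had 0.33, 0.42 and 0.06 in ASXL1Mt, against -0.61, -0.06 and -0.33 in mock (log2 change 0.60, adjusted p = 0.119), and its single probe set was not bright. Mylip had -0.05, -0.52 and -0.76 in ASXL1Mt, against 0.05, 0.48 and 0.33 in mock, with no overlap and a log2 change of -0.73 (adjusted p = 0.118). Stard4, a cytosolic sterol carrier and SREBP target, had a change of 0.37.

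At the level of probe sets 14 of 82 passed as higher and 0 as lower, where 8.1% of all probe sets were called, 4.73% as higher and 3.37% as lower. They belonged to 12 genes. Of these Acaca, Scd2 and Abca1 were not called as genes, and of the genes called above Lss, Tm7sf2 and Srebf1 had no probe set past the threshold alone. Bright was judged on the highest arrays of a probe set, which all belong to the same group where the groups do not overlap. The other group may then lie below the signal that defines bright, so the bright fit does not show that both groups were well measured. When bright probe sets were fitted alone, 22 of 33 genes were called, where 43.8% of all 9421 genes with a bright probe set were. Of the 33, 18 were higher and 4 lower, against 27.6% and 16.2% of all such genes. All 12 genes named above were among the 18, with Hmgcs1 (adjusted p = 0.0187), Idi1 (adjusted p = 0.0392), Fdps (adjusted p = 0.00742), Acaca (adjusted p = 0.00239), Scd2 (adjusted p = 0.0238) and Abca1 (adjusted p = 0.00146). The 4 lower genes were Hsd17b7 at -0.65 (adjusted p = 0.0482), Sc5d at -0.69 (adjusted p = 0.0208), Acss2 at -0.66 (adjusted p = 0.0231) and Mylip at -0.73 (adjusted p = 0.0392), all by limma.

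**Figure D3:**
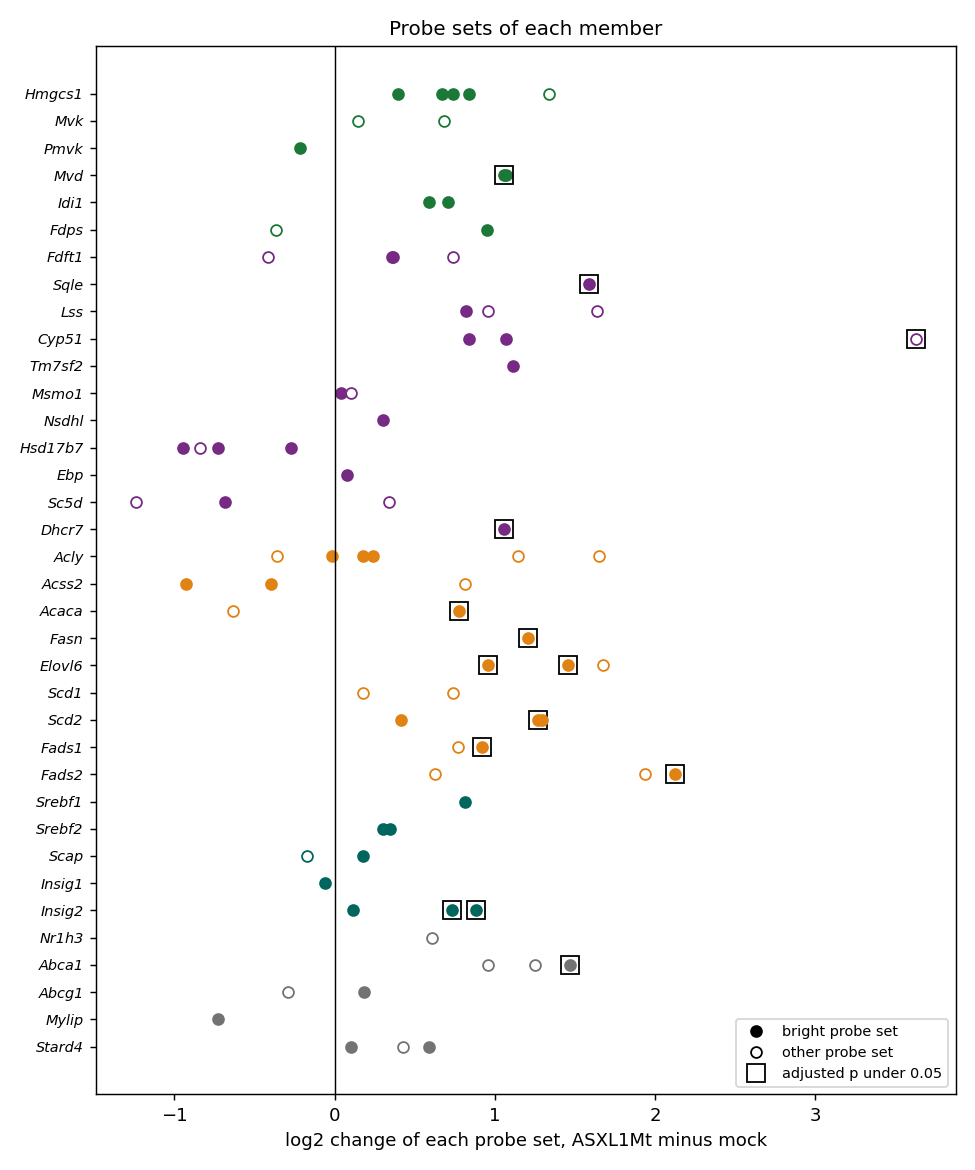
Log2 change of each of the 82 probe sets (horizontal axis, ASXL1Mt minus mock) by gene, filled where the probe set was bright and open where it was not; black squares mark the 14 with an adjusted p under 0.05. Of the squares, 13 are on bright probe sets, and the exception is the open point of Cyp51 at 3.63.

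Arrays of 1 group also differed. Averaged over the 36 genes, the arrays had 0.38, 0.13 and 0.15 in ASXL1Mt, against -0.26, -0.19 and -0.47 in mock. Of the 29 genes with their highest value in an ASXL1Mt array, 19 had it in replicate 1, where 29.8% of all genes with their highest value in an ASXL1Mt array did. Of the 28 with their lowest value in a mock array, 18 had it in replicate 3, where 33.6% of all such genes did. Whether the genes varied together within groups was not tested. For the 17 measured sterol synthesis genes the mean was 0.42, 0.12 and 0.19 in ASXL1Mt, against -0.22, -0.16 and -0.51 in mock. For the 9 fatty acid genes it was 0.48, 0.15 and 0.26 in ASXL1Mt, against -0.43, -0.34 and -0.61 in mock. ASXL1Mt replicate 1 was also the highest array for the erythroid marker list, at 2.07, with 0.62 and 0.21 in the other ASXL1Mt arrays and -1.52, -0.87 and -0.30 in mock, and the part of red cell precursors in the sterol values was not tested.

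**Figure D4:**
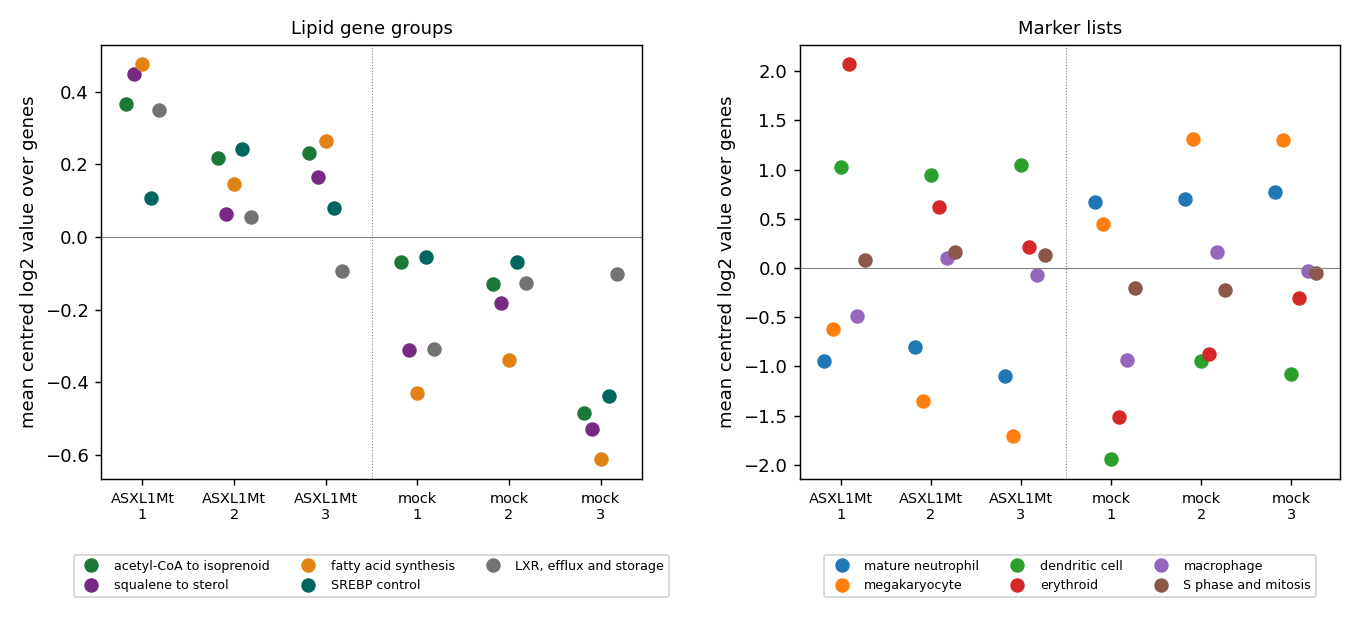
Mean centred log2 value over the genes of each list (vertical axis) in the 3 ASXL1Mt and 3 mock arrays, for the groups of sterol and fatty acid genes (left panel) and for marker lists of other cell types and of division (right panel); the panels have different vertical scales. Both sterol synthesis groups, fatty acid synthesis and SREBP control lie above 0 in the ASXL1Mt arrays and below 0 in the mock arrays, and mock replicate 3 is the lowest of these, while the LXR, efflux and storage group comes closest, at -0.09 in ASXL1Mt replicate 3 and -0.10 in mock replicate 3.

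Some marker lists moved between the groups as well, and their part in the lipid gene values was not tested. The counts of each list are to be read against the 6.63% of all genes called as higher and 4.75% called as lower. Of the 10 mature neutrophil genes measured, 7 fell and 0 rose, among the former Il1r2 at -4.17 (adjusted p = 0.00479) and Mmp9 at -1.87 (adjusted p = 0.0124), and the list mean ran from -1.10 to -0.80 in ASXL1Mt, against 0.67 to 0.77 in mock. The 3 not called were Padi4, S100a8 and S100a9. Their changes were -0.39, -0.18 and 0.0003, with limma adjusted p of 0.141, 0.509 and 0.9995. Of 10 dendritic cell genes 9 were higher, among them Flt3 at 3.50 (adjusted p = 0.01) and Irf8 at 1.67 (adjusted p = 0.0106), with means from 0.95 to 1.05 in ASXL1Mt, against -1.94 to -0.94 in mock. The gene of that list that was not called was Itgax at 0.10 (adjusted p = 0.839). Of 8 megakaryocyte genes 6 were lower, among them Clec1b at -1.87 (adjusted p = 0.0128) and Itga2b at -1.38 (adjusted p = 0.0143), with means from -1.71 to -0.62 in ASXL1Mt, against 0.45 to 1.31 in mock. Of 15 genes of S phase and mitosis 2 were higher, Mcm2 at 0.70 (adjusted p = 0.0308) and Aurkb at 0.60 (adjusted p = 0.048), with means from 0.08 to 0.16 in ASXL1Mt, against -0.23 to -0.05 in mock. Of these 15 genes 13 had a change above 0, as had 10304 of all 18193 genes, and the median was 0.30, against 0.11 over all genes. On bright probe sets alone 7 of 14 were higher and 0 lower, where 27.6% and 16.2% of all such genes were. The macrophage list, with 1 higher and 2 lower of 12, held Vcam1 at -4.33 (adjusted p = 0.00803) and Slc40a1 at -1.45 (adjusted p = 0.0176), and the higher gene was Cd163 at 1.58 (adjusted p = 0.0402). In that list 7 of 12 genes had a change above 0, the median was 0.27, and the array means overlapped. Of 5 adipocyte genes 0 were called by limma and 1 was higher without adjustment, Adipoq at 1.67 (adjusted p = 0.0655). Of the erythroid, stem and progenitor, B cell and T cell lists, 1 of 6, 2 of 9, 2 of 6 and 1 of 5 genes were higher, and 0, 1, 0 and 0 were lower. Those with the smallest p were Alas2 at 3.98 (adjusted p = 0.043), Cd34 at 1.44 (adjusted p = 0.0198), Mecom at 2.63 (adjusted p = 0.0272), Cd22 at 1.78 (adjusted p = 0.0216), Cd79b at 0.96 (adjusted p = 0.0315) and Cd8a at 2.99 (adjusted p = 0.00773). The lower stem and progenitor gene was Meis1 at -1.95 (adjusted p = 0.0469), and Hlf had -3.18 without passing (adjusted p = 0.055). In that list 7 of 9 genes had a change above 0, with a median of 0.20. In the erythroid list 6 of 6 genes had a change above 0, with a median of 1.65. In the B cell list 4 of 6 genes had a change below 0, with a median of -0.39, and in the T cell list 3 of 5 did, with a median of -0.04. Cd163, Meis1, Hlf, Itgax, Padi4, S100a8 and S100a9 were chosen after their values were seen. The centred values cannot show whether any marker was near 0.

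Genes of the same pathways outside the set were counted in the same way, beside the 6.63% of all genes called as higher and 4.75% called as lower. Of 12 other sterol and isoprenoid enzymes 0 passed in limma's test, with 4 higher and 1 lower at an unadjusted p under 0.05 and a median change of 0.09. The smallest p was that of Coq2, an enzyme of ubiquinone synthesis, at 0.92 (adjusted p = 0.0529). Of 8 other SREBP regulators 0 passed, with 3 in each direction at an unadjusted p under 0.05, and Erlin2 had the smallest p at a change of 0.63 (adjusted p = 0.0557). Of 7 genes of sterol uptake and lysosomal release 0 passed, with 2 higher and 0 lower at an unadjusted p under 0.05, and the receptor gene Scarb1 had 0.48 (adjusted p = 0.0762). Of 12 other export and LXR target genes 1 fell and 0 rose, the phospholipid transfer protein gene Pltp at 1.87-fold lower (log2 change -0.90, adjusted p = 0.0235), which was not called when its less variable probe set stood for it (-0.34, adjusted p = 0.266). Of 19 genes of fatty acid oxidation 0 passed, with 3 higher and 1 lower at an unadjusted p under 0.05, and the carrier Slc25a20 had -0.84 (adjusted p = 0.0511). On bright probe sets alone the other sterol and isoprenoid enzymes had 5 higher and 1 lower of 9, with a median change of 0.48, and the other SREBP regulators had 4 higher and 3 lower of 8. Uptake and lysosomal release had 2 higher and 0 lower of 7, other export and LXR target genes 0 higher and 3 lower of 10, and fatty acid oxidation 3 higher and 1 lower of 16. The shares of all genes in that fit were the 27.6% and 16.2% given above.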

How the data were processed

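The deposited values are on a log scale, taken here as log2, per probe set and array; per the submitters' processing notes the signals were made with MAS5. Log base and centring are not stated and were inferred: each probe set's median was 0 to within 5e-07, and in all 425 probe sets with equal values in several arrays the equal values were the lowest, so higher was read as brighter. A probe set was called bright when its 3 highest arrays lay within 0.1 of a rounding step with 20 binary places. Probe sets with 1 symbol were averaged per gene; 34945 probe sets had 1 symbol, 932 several and 9160 none here. Group differences were fitted over all 6 arrays in limma 3.58.1 (lmFit, then eBayes without a trend, R 4.3.3) and adjusted by Benjamini-Hochberg over all 18193 genes or 45037 probe sets. The fit was checked on simulated data. Genes and lists were chosen with earlier results of these data known, so no list was tested as a set. Genes past the threshold, genes with a probe set past it, and the smallest p values of each other list are named; other lists' genes named beyond these were chosen after their values were seen. Alternatives were 3 scalings, trend and robust settings, other ways to combine probe sets, bright probe sets alone, each array left out and the replicate number as a block. RefSeq (GRCm38.p6) gave promoter sequences and gene neighbours; all 36 symbols matched it. The number of arrays limits the precision.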

Additional observations from a re-analysis of the deposited data

How the results depend on the processing

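No gene of the 36 that passed changed its direction under the alternatives run. Of the 12 called genes, 8 passed after quantile normalization and after cyclic loess, 9 with equal array medians, 11 with trend and robust settings, with the median of probe sets and with each gene's least variable probe set, and 12 on bright probe sets alone. Bright was judged on the highest arrays, so the last count does not show that both groups were well measured. The count of called genes in the set was 22 of 33 on bright probe sets alone, where 43.8% of all such genes were called. The count of called probe sets was 29 of 52 there and 24 of 82 with trend and robust settings. Of all probe sets in those fits 39.4% and 12.9% were called, against 8.1% as reported, so calls rose over the whole array as well. After quantile normalization, cyclic loess and equal medians 12, 11 and 12 of the 82 probe sets were higher and each time 1 was lower. Of all probe sets 8.12%, 7.82% and 7.71% were called there. With trend and robust settings 23 were higher and 1 lower. With least variable probe sets 16 of 36 genes were called, 15 higher and 1 lower, where 21.4% of all genes were called. The lower gene was Acss2 (log2 change -0.93, limma adjusted p = 0.0237). Leaving out an array in turn gave 0 to 3 called genes and 0 to 3 called probe sets. The median change of sterol synthesis genes, 0.42 as reported, was 0.68 with least variable probe sets and 0.65 on bright probe sets, and 0.71 after cyclic loess for fatty acid genes, 0.85 as reported. With an array left out the medians ran from 0.35 to 0.66 for sterol synthesis, 0.73 to 0.94 for fatty acid synthesis, 0.18 to 0.60 for SREBP control and 0.25 to 0.52 for LXR, export and transfer genes. With the replicate number as a block 0 genes and 0 probe sets of the set passed, and 0 of all 18193 genes. Deviations of same-numbered arrays correlated at -0.00882, -0.0116 and -0.00903 over all 45037 probe sets, of which 38.2% were bright. The median SD within groups was 0.81 for those not bright and 0.18 for the bright. Such noise could hide a shared effect, so these correlations cannot exclude pairs. The reported fits did not treat the numbers as pairs. Mvk, Scd1 and Nr1h3 rest on probe sets that were not read as bright, which limits their values. The cause of these differences was not tested.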

Other observations

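Genes that lengthen fatty acids and build them into storage fat did not move as one group. Of 29 measured genes of fatty acid and lipid synthesis outside the set above, 4 rose and 6 fell, where 6.63% and 4.75% of all genes did. On bright probe sets alone 10 of 24 were higher and 7 lower, where 27.6% and 16.2% of all such genes were. The genes named here beyond Dgat1 and Acsl3 were chosen after their values were seen. Dgat1 and Dgat2 encode the enzymes that close triglyceride synthesis, and Agpat2 encodes an earlier acyltransferase of the same route. Dgat1 had -0.73, -1.18 and -1.28 in ASXL1Mt, against 0.69, 0.81 and 0.70 in mock, 3.47-fold lower (log2 change -1.80, SE 0.19, adjusted p = 0.0117 by limma) and 5 of the 6 fits that omitted an array still called it. Agpat2 had -0.72, -0.44 and -0.61 in ASXL1Mt, against 0.56, 0.44 and 0.60 in mock, and Dgat2 had -0.51, -0.32 and -0.87 against 0.32, 0.52 and 0.51 in mock. All 3 had groups that did not overlap, as 14.4% of all genes did with ASXL1Mt below. The other genes that fell were the dehydratase gene Hacd4, the reductase gene Tecr and the elongase gene Elovl7. Acsl3, an acyl-CoA synthetase of lipid droplets, rose, with 0.52, 0.67 and 0.55 in ASXL1Mt, against -0.73, -1.14 and -0.87 in mock (log2 change 1.49, SE 0.16, adjusted p = 0.0124). Lpin1, a phosphatidate phosphatase, rose by 1.34 on the log2 scale (adjusted p = 0.0358), with Mcat (adjusted p = 0.0318) and Hacd1 (adjusted p = 0.0488), which lost its call after quantile normalization (adjusted p = 0.0687).

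Apoe, Apoc1 and Apoc2, neighbouring apolipoprotein genes known as LXR targets in mouse macrophages, were lower in every ASXL1Mt array than in every mock array, but none passed (adjusted p = 0.0782, 0.131 and 0.0766). Of all genes 14.4% lay apart in this direction. Of the 12 measured genes in their list, 6 had a change above 0 and 6 below. The 3 were chosen after their values were seen.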
